A study of Homo sapiens with 6 samples.

Results

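The transcripts of 9 complement components and regulators (C1R, C1S, SERPING1, C3, CFB, CFI, CD46, CD55 and CD59) were examined in RNF25-knockdown SW839 cells. They were taken by gene symbol from a table of normalized counts with 30267 genes. Of the 9, 8 had values and 7 passed the filter on low values, 10 or more normalized counts in 3 or more libraries. CFI was not analysed here, and every gene listed in the table had at least 1 read in some library. SW839 is an established renal cell carcinoma line. Total RNA depleted of ribosomal RNA was sequenced from 3 libraries of cells carrying an shRNA against RNF25 (shRNF25) and 3 libraries of cells carrying the pLKO vector (shControl). Per the study's methods, hairpins and empty vector were delivered by lentivirus and the infected cells were selected with puromycin, which both groups therefore share. The treatment text in the labels is the same for all 6 samples and names the RNF25 hairpin plasmid, so the groups rest on titles and genotype labels. The shRNF25 library names point to 1 hairpin, and no batch is labelled. Loss of RNF25, other targets of this hairpin and any batch aligned with the groups therefore cannot be told apart. The control library names differ in form and the shRNF25 names do not, and whether this reflects separate preparation was not tested. The design text calls the 3 libraries of a group biological replicates without saying whether they came from separate infections, and p-values measure the spread between these libraries.

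Complement is a cascade of plasma proteins that marks cells for removal and perforates membranes. The proteases C1r and C1s start the classical pathway, factor B supplies the protease of the alternative pathway, and all routes meet at C3, whose cleavage tags the target surface. SERPING1 encodes the C1 inhibitor and CFI the protease that degrades deposited C3b, while CD46, CD55 and CD59 are held on the membrane and protect the cell's own surface. The liver makes most circulating complement, and epithelial cells, renal tubular cells among them, also transcribe C3 and factor B, with higher output under inflammatory cytokines.

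The members did not move as a block. C3 was 39.7-fold lower in shRNF25 than in shControl and CFB 4.60-fold lower, whereas CD59, C1S and C1R were 1.69-, 1.66- and 1.54-fold higher by the ratio of group means. With calls made at adjusted p-values under 0.05 and changes of 1.5-fold or more, 2 of the 7 tested members were lower and 3 were higher. Among all 16554 genes tested, 7.10% were lower and 8.65% were higher by the same criteria. No overlap between the groups was seen for 6 members, 3 in each direction, and for 42.5% of all tested genes. The median log2 fold change was 0.13 over the 7 members and -0.01 over all tested genes. Values are normalized counts, changes are on the log2(normalized count + 1) scale with limma's standard errors and Benjamini-Hochberg adjusted p-values over all tested genes, and a single value was also compared by a two-sided exact permutation test, which cannot go below p = 0.1 with 3 libraries against 3. In bulk RNA, fewer cells that express a gene and less RNA per cell cannot be told apart.

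RNF25 itself, the target of the hairpin, fell to 41.1% of the control mean, from 588.1 ± 91.95 to 241.6 ± 25.7 (SD, n = 3 per group). Between 18647460 and 19943154 reads were counted per library. One library stood apart, since mitochondrial transcripts took 12.1% of the normalized counts in shControl replicate 1 and between 3.58% and 4.44% in the other 5, and values without it are given below. Of 7 markers of renal carcinoma and kidney epithelium, 5 passed the filter, with summed levels from 38570 to 50140 in shControl and from 53870 to 57730 in shRNF25. Nearly all of these sums was KRT8 and KRT18, while PAX8 and NDUFA4L2 had shControl means of 127.4 and 24.4. PAX8, NDUFA4L2, KRT8 and KRT18 did not pass the test, VIM rose from 355.4 ± 133.0 to 831.9 ± 43.4, CA9 was low at 23.6 ± 23.6 and 4.94 ± 3.18, and PAX2 was not listed. The summed level of 6 macrophage markers was 38.7 to 54.4 in shControl and 27.6 to 46.5 in shRNF25, with C1QA not listed and LYZ, CD14 and CD68 under the filter. The 5 hepatocyte markers summed to 42.1 to 94.98 and 44.3 to 56.5, with TTR not listed and ALB under the filter, although SERPINA1 was lower and FGB higher in shRNF25. The 4 fibroblast markers summed to 1101 to 1263 and 856.1 to 1000.0, nearly all of it COL1A1, with COL1A2, PDGFRB and DCN under the filter. The 4 endothelial markers summed to 489.4 to 695.1 and 494.1 to 645.1, with CDH5 lower and KDR higher. The part of these shifts in the complement results was not tested.

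The start regions of 3 members that passed the criteria are shown because these genes differ in direction, CFB falling and C1R and CD59 rising. RefSeq windows (GRCh38.p14) of 250 bases before the start were matched by symbol for 6 of the 9 members, C1R, CFB, CFI, CD46, CD55 and CD59. C1S, SERPING1 and C3 were not matched. Capitals mark matches, on either strand, to the C/EBP motif TTNNGNAA, the STAT motif TTCNNNGAA or the IRF motif (GAAA and GAAA parted by any 2 bases). The windows lie at chr12:7092446-7092695 (minus strand) for C1R, at chr6:31945845-31946094 (plus strand) for CFB and at chr11:33736480-33736729 (minus strand) for CD59.
C1R: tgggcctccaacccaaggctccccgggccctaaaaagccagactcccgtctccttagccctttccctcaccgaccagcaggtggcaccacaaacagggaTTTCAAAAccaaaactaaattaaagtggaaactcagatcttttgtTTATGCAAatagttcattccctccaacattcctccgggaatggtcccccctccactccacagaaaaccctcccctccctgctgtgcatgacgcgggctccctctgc
CFB: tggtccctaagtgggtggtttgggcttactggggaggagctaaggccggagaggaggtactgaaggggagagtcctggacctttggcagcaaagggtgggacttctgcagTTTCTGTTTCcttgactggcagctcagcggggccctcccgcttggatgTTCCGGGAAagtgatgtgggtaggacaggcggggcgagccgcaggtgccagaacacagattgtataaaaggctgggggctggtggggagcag
CD59: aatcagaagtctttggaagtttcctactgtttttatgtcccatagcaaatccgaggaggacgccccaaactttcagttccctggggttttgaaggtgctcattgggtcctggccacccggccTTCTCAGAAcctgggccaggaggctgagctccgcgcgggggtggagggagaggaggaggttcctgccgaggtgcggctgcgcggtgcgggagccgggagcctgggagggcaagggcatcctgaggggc

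The CFB window held 1 STAT match at -92 to -84 and 1 IRF match at -140 to -131, counted from the RefSeq start. The CD59 window held 1 STAT match at -128 to -120. The C1R window held 2 C/EBP matches, at -151 to -144 and at -106 to -99. STAT matches were found in 6.57% of 35116 RefSeq windows of this length, IRF matches in 3.02% and C/EBP matches in 33.2%. The κB consensus was found in 5.21% of all windows and in none of the 6 member windows, which says only that these letters are not within 250 bases of these starts. A STAT match stood before the RefSeq start of CFB, which fell, and of CD59, which rose. The matches describe sequence and not binding, and their part in these changes was not tested. In the GENCODE 29 annotation the first bases of these genes lie further upstream, at 31945650 for CFB, 7092607 for C1R and 33736491 for CD59. By those positions the CFB and C1R matches lie inside the annotated gene and the CD59 match lies before it.

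C3, the central component, had normalized counts of 20041, 19222 and 12339 in shControl replicates 1, 2 and 3 and of 456.5, 434.0 and 409.9 in shRNF25, with means of 17200.5 ± 4230 and 433.5 ± 23.3 (SD, n = 3). Every shRNF25 library was far below the lowest control, and the knockdown libraries varied less among themselves (coefficient of variation 5.38%) than the controls (24.6%). This was not particular to C3. The knockdown spread was also the smaller for each other member with values, though barely for CFB (42.4% against 44.5%). Over all tested genes, Pearson's r of log2 values between libraries was 0.976 to 0.987 in shControl and 0.994 in shRNF25. The log2 fold change was -5.28 (standard error 0.176, 95% interval -5.67 to -4.88, adjusted p = 9.08e-07 from limma), the remaining level was 2.52% of the control mean, and the exact permutation p was 0.1. Only 7 of the 16554 tested genes had a lower log2 fold change. The estimate stayed between -5.50 and -5.08 over 15 alternative settings, and it was -5.15 without shControl replicate 1. In GRCh38, C3 (ENSG00000125730.16 in GENCODE 29) spans 6677704 to 6730562 of chromosome 19, minus strand, and its longest coding transcript shares no 50-base word with another gene. AC008760.2, a non-coding gene annotated within an intron of C3 on the same strand and named after its values were seen, had 16 to 31 reads in each control library and 0 reads over the 3 shRNF25 libraries. Against a floor of 3 reads per library it was at least 8.38-fold lower. Reads of unspliced C3 and of AC008760.2 cannot be told apart by position or strand.

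CFB, factor B, had values of 43.1, 70.8 and 109.0 in shControl and of 19.1, 8.31 and 21.0 in shRNF25. The groups did not overlap, yet both were spread by about the same factor, 2.53 between the highest and lowest control and 2.52 in shRNF25. The log2 fold change was -2.13 (standard error 0.413, 95% interval -3.06 to -1.20, adjusted p = 0.00672 from limma), with an exact permutation p of 0.1. Read numbers were low, 39, 69 and 101 in shControl and 21, 9 and 22 in shRNF25, and the interval of the fall is wide. CFB starts at 31945650 and ends at 31952084 on chromosome 6 (plus strand, ENSG00000243649.8). A read-through gene, AL645922.1, covers 45.0% of its exon bases on the same strand and holds 78.2% of the 50-base words in the longest CFB coding transcript. How reads in that stretch were assigned is not given in the sources used here.

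**Figure D1:**
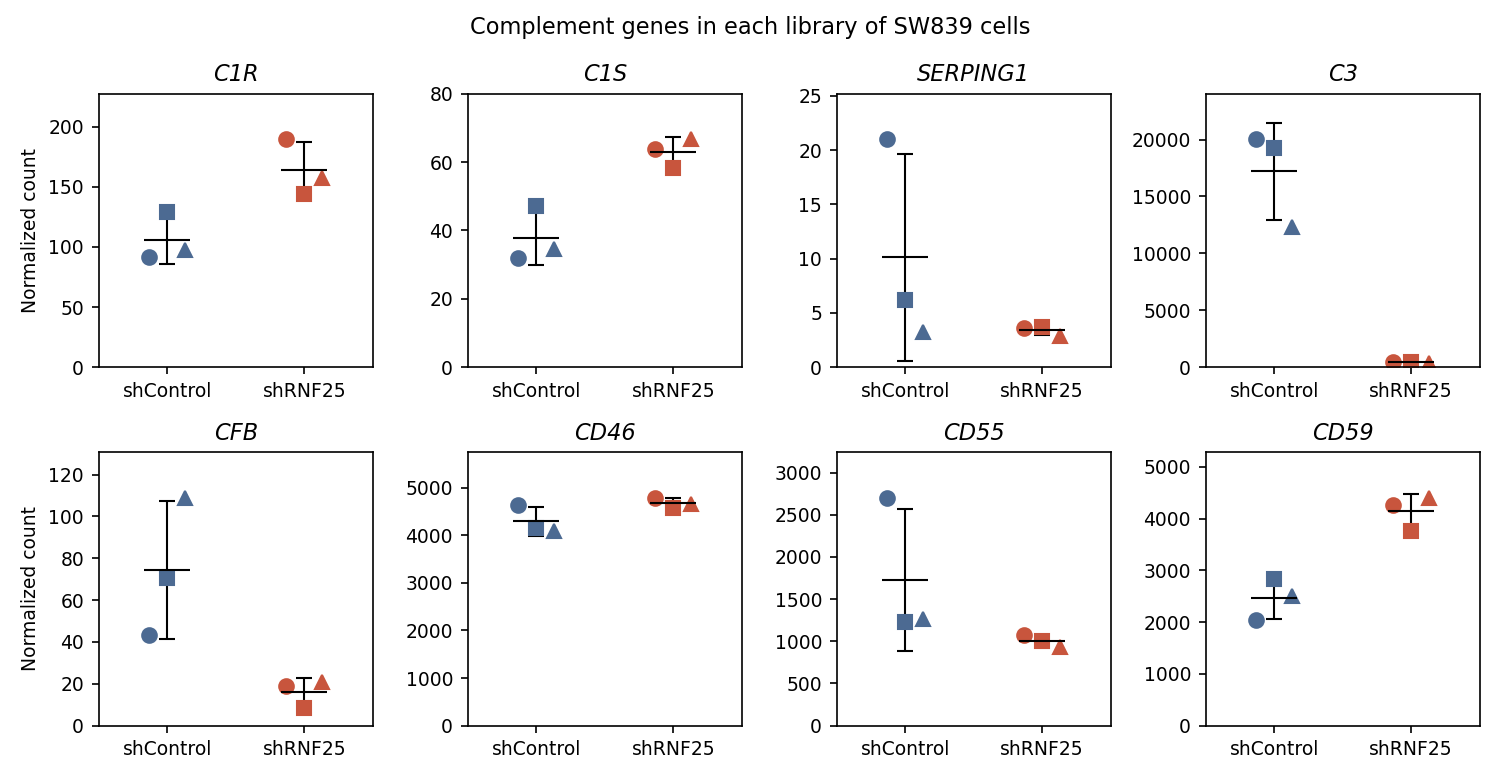
Normalized count (vertical axis, from 0, a scale of its own for each gene) of the 8 complement genes with values in each library; circles, squares and triangles are replicates 1, 2 and 3, bars are the mean ± SD (n = 3). C3 went from 12339 or more in every shControl library to 456.5 or less in shRNF25, CD59 rose from at most 2833 to at least 3766, and the 2703 of shControl replicate 1 set the wide spread of CD55.

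C1R and C1S, the paired proteases that initiate the classical pathway, were modestly higher in shRNF25. C1R had values of 91.8, 129.3 and 97.1 in shControl and of 189.5, 144.1 and 157.3 in shRNF25. C1S had values of 32.1, 47.2 and 34.5 in shControl and of 63.8, 58.2 and 66.7 in shRNF25. For both genes the lowest knockdown library was above the highest control, which was shControl replicate 2 in each case. The log2 fold change was 0.63 for C1R (standard error 0.185, adjusted p = 0.0408 from limma) and 0.73 for C1S (standard error 0.212, adjusted p = 0.0379 from limma), with an exact permutation p of 0.1 for each. Both calls lay close to the threshold and were lost when 1 library was left out. Without shRNF25 replicates 1, 2 and 3 the adjusted p was 0.180, 0.0821 and 0.121 for C1R, and 0.134, 0.102 and 0.150 for C1S. Without shControl replicate 3 it was 0.0748 and 0.0631. Without shControl replicate 1 the change of C1R was 0.53 (adjusted p = 0.0407 from limma), under 1.5-fold, and that of C1S was 0.62 (adjusted p = 0.0419 from limma), so that 2 members were higher. Quantile normalization also ended the call of C1S, at 0.58 with an adjusted p of 0.0857 from limma. The direction was positive under all 15 alternatives, with log2 fold changes of 0.52 to 0.78 for C1R and 0.58 to 0.90 for C1S. The genes are neighbours on chromosome 12, C1S from 6988259 to 7071032 on the plus strand and C1R from 7080199 to 7092607 on the minus strand. C1RL shares 11.4% of the exon bases of C1R and 24.0% of the 50-base words in its longest coding transcript. C1RL, a related protease gene, had 199.9 ± 26.6 in shControl and 173.2 ± 20.3 in shRNF25 (log2 fold change -0.20, adjusted p = 0.394 from limma). EMG1 shares 3.54% of the exon bases of C1S, on the same strand, and 5.98% of the 50-base words in the longest C1S coding transcript. EMG1 had 563.6 ± 140.9 in shControl and 447.0 ± 59.5 in shRNF25 (log2 fold change -0.31, adjusted p = 0.275 from limma).

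SERPING1, the gene of the inhibitor that inactivates C1r and C1s, had few reads in every library. Its values were 21.0, 6.16 and 3.24 in shControl and 3.64, 3.69 and 2.86 in shRNF25, from 19, 6 and 3 reads and from 4, 4 and 3 reads. The groups overlapped, and shControl replicate 1 alone held most of the control level. The gene did not pass the filter. In a fit with no filter its log2 fold change was estimated at -0.996 (standard error 0.577), adjusted p = 0.329 from limma, and the exact permutation p was 0.3, so that a difference was not detectable at this depth.

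The membrane regulators went separate ways. CD59, which blocks the membrane attack complex, had values of 2040, 2833 and 2503 in shControl and of 4266, 3766 and 4405 in shRNF25. All knockdown libraries were above all controls. The log2 fold change was 0.76 (standard error 0.137, 95% interval 0.46 to 1.07, adjusted p = 0.00472 from limma, exact permutation p = 0.1). It passed the adjusted threshold under all 15 alternatives, with log2 fold changes from 0.64, the value without shControl replicate 1, to 0.89. CD59 lies on chromosome 11 from 33703010 to 33736491 (minus strand, ENSG00000085063.15), and AL049629.2 shares 6.07% of its exon bases.

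CD46, the cofactor with which factor I cleaves C3b and C4b, had values of 4643, 4144 and 4081 in shControl and of 4790, 4575 and 4655 in shRNF25. The groups overlapped at shControl replicate 1. The log2 fold change was 0.13 with a 95% interval of -0.10 to 0.35 (adjusted p = 0.402 from limma, exact permutation p = 0.2), an interval that does not reach a change of 1.5-fold in either direction.

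CD55, which speeds the decay of the C3 convertases, had values of 2703, 1226 and 1264 in shControl and of 1079, 1008 and 936.0 in shRNF25. All knockdown libraries were below all controls, but shControl replicate 1, the library rich in mitochondrial transcripts, was 2.20 times the lowest control. The log2 fold change was -0.68 (standard error 0.266, 95% interval -1.28 to -0.08), and it did not pass the threshold (adjusted p = 0.101 from limma, exact permutation p = 0.1). Without shControl replicate 1 the estimate shrank to -0.31 while its adjusted p was 0.0191, below the threshold but under the 1.5-fold criterion. DESeq2 on the recovered reads gave -0.77 with an adjusted p of 0.0259, so that CD55 met both criteria there. CD55 (207321376 to 207386804) and CD46 (207752057 to 207795513) lie on the plus strand of chromosome 1, with the complement receptor genes CR2 and CR1 between them.

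**Figure D2:**
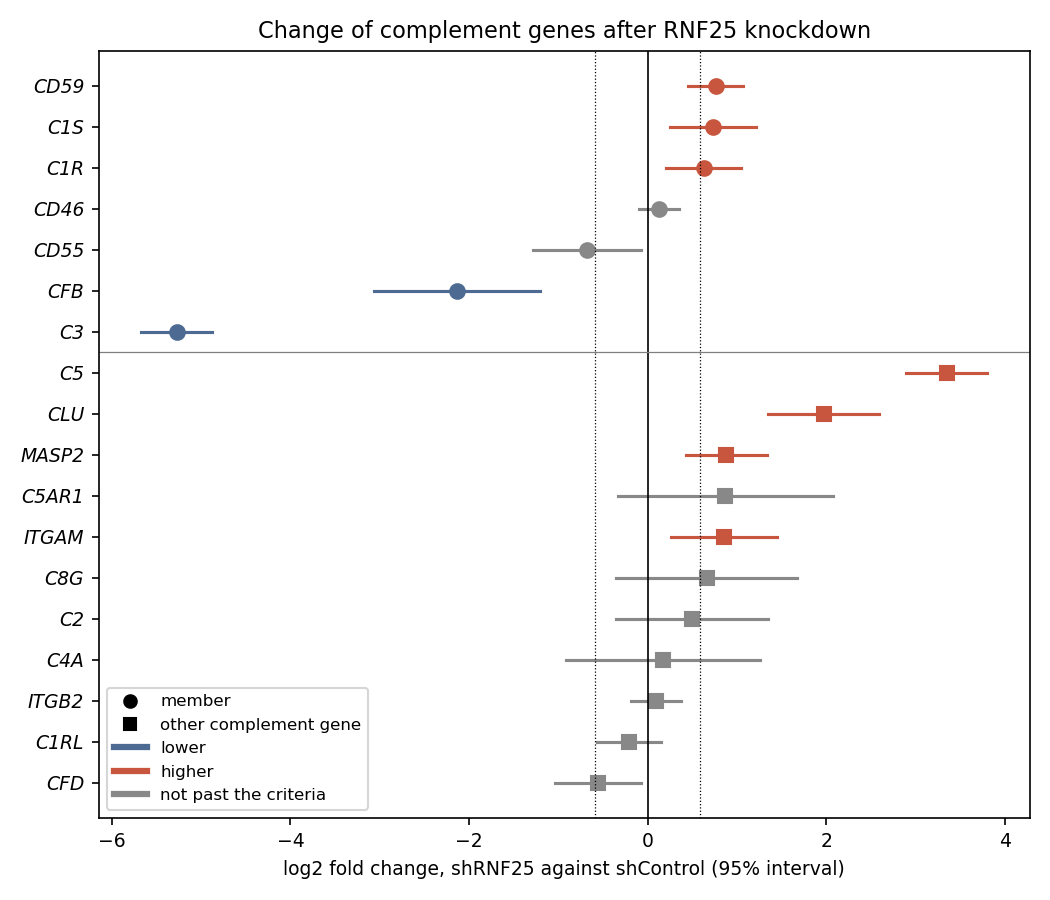
Log2 fold change of shRNF25 against shControl (horizontal axis) with its 95% interval for the 7 tested members (circles, above the line) and the genes of the wider complement list that are named in the text (squares, below). Dotted lines mark a 1.5-fold change. C3 at -5.28 and C5 at 3.35 lie at opposite ends.

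The make-up of the complement transcripts was compared on a per-length scale, as normalized counts per kilobase of merged GENCODE exons. In shControl the order of these levels was C3 (2065 ± 507.9), CD46 (492.6 ± 35.4), CD55 (293.0 ± 142.5), CD59 (237.3 ± 38.5), C1R (18.0 ± 3.45), CFB (14.9 ± 6.62), C1S (5.87 ± 1.26) and SERPING1 (2.81 ± 2.64; SD, n = 3 throughout). The library ranges of CD55 and CD59, of C1R and CFB, and of C1S and SERPING1 overlapped, so these neighbours were not separated. In shRNF25 the order was CD46 (536.7 ± 12.5), CD59 (400.2 ± 32.4), CD55 (170.6 ± 12.1), C3 (52.1 ± 2.80), C1R (27.8 ± 3.97), C1S (9.73 ± 0.67), CFB (3.23 ± 1.37) and SERPING1 (0.94 ± 0.13), with no overlap between neighbours. C3 went from position 322 to position 9321 among the 28156 genes ranked by level per kilobase. Its share of the summed level of the 8 genes was 60.5% to 69.7% in the control libraries and 4.07% to 4.54% in the knockdown libraries. The share of CD59 was 5.43% to 9.86% and 31.7% to 35.2%, and that of CD46 14.4% to 19.1% and 44.1% to 45.8%. Shares of a sum are tied to each other, and the share of CD55 was higher in shRNF25 (13.1% to 14.9%, against 6.27% to 12.6%) although its level was lower.

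**Figure D3:**
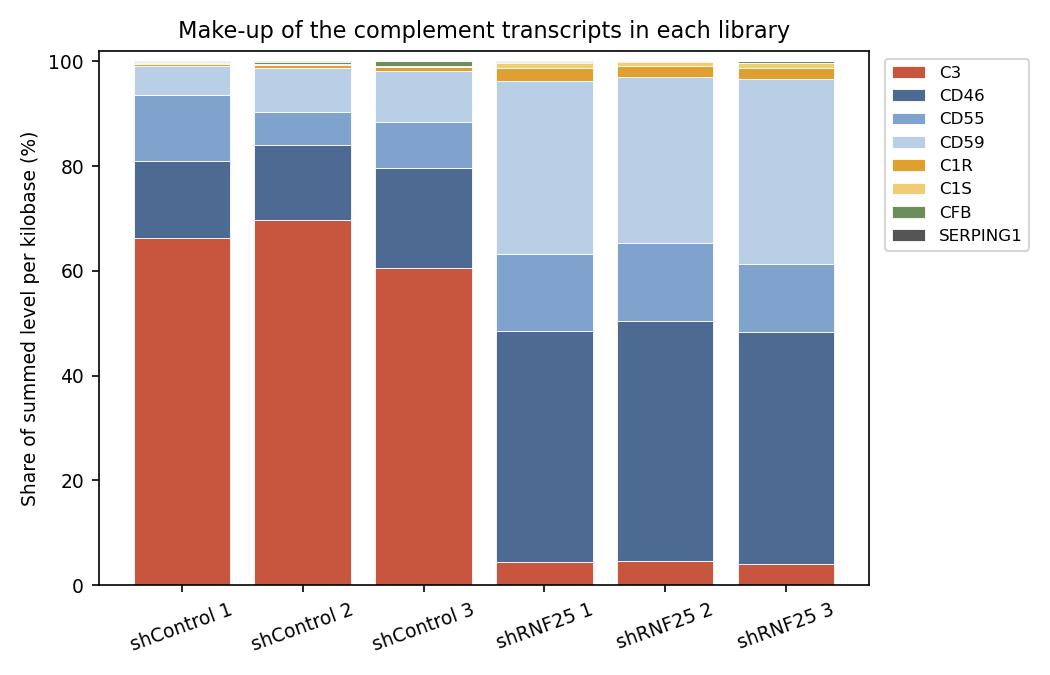
Share (%, vertical axis) of each of 8 complement genes in their summed normalized count per kilobase of exon, with 1 bar per library. C3 takes 60.5% or more of every shControl bar and 4.54% or less of every shRNF25 bar, where CD46 and CD59 take most of the rest.

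Partners were then compared within each library as log2 ratios of normalized counts with 1 added to each. The added count matters where values are low, as for SERPING1. The log2 ratio of C1R to C1S was 1.46 ± 0.03 in shControl and 1.36 ± 0.18 in shRNF25 (SD, n = 3). The groups overlapped (difference -0.10, exact permutation p = 0.4), and the sign of the difference turned under quantile normalization, to 0.0144. The ratio of C1S to its inhibitor SERPING1 was 0.59, 2.75 and 3.07 in shControl and 3.80, 3.66 and 4.13 in shRNF25. The difference of 1.73 rests on few SERPING1 reads. It was 1.35 with 5 added to each value and 1.81 with 0.5 added, and 0.95 without shControl replicate 1. The ratio of CFB to C3 rose from -7.90 ± 1.02 to -4.76 ± 0.70, C3 having fallen further than CFB. The ratio of CD55 to CD46 was -1.41 ± 0.55 and -2.21 ± 0.09, a difference of -0.81 that was -0.49 without shControl replicate 1. The ratio of CD59 to CD46 was -0.81 ± 0.33 and -0.18 ± 0.10. For these last 4 ratios the groups did not overlap, with an exact permutation p of 0.1 each (0.125 after Benjamini-Hochberg adjustment over the 5 ratios), which the design cannot lower.

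**Figure D4:**
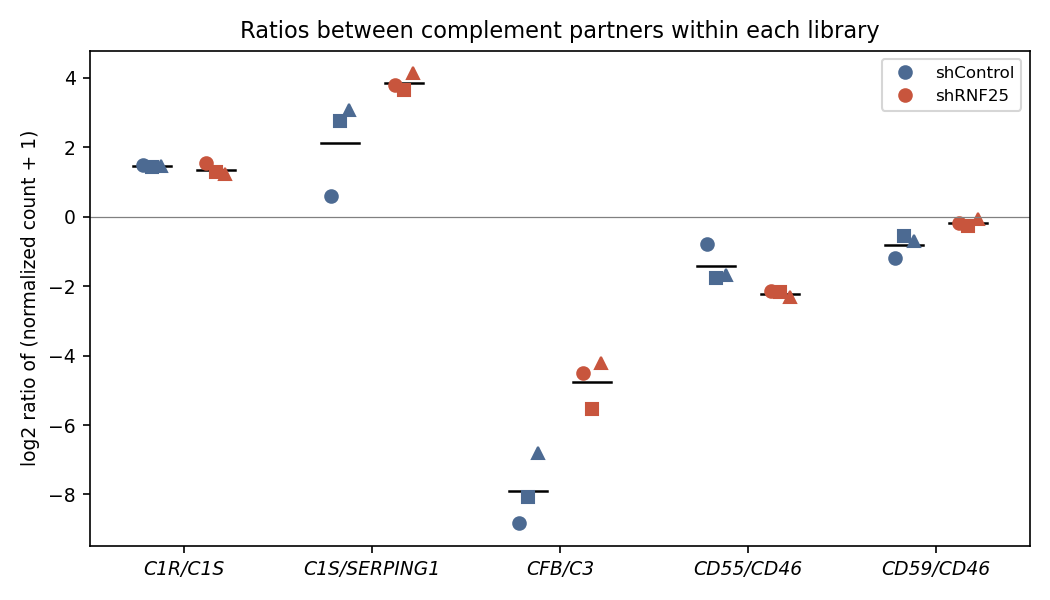
Log2 ratio of normalized count + 1 (vertical axis) of 5 pairs of complement genes within each library; circles, squares and triangles are replicates 1, 2 and 3 and bars are means. The groups overlap for C1R/C1S alone, and the mean of CFB/C3 moves from -7.90 to -4.76.

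Of 45 other complement genes, 29 had values and 12 passed the filter. Among these 12, 5 were higher and 0 lower in shRNF25, beside 8.65% and 7.10% of all tested genes. CFD and C1RL alone had log2 fold changes below 0. CFD was the 1 gene of the 12 that was lower at an unadjusted limma p under 0.05, and edgeR and DESeq2 also called 0 genes lower. CFD came close in DESeq2, at -0.582 with an adjusted p of 0.0482, and missed only the 1.5-fold criterion. C5, the component from which the membrane attack complex is begun, rose most, from 69.6, 41.0 and 46.4 in shControl to 487.5, 547.6 and 557.6 in shRNF25 (log2 fold change 3.35, standard error 0.201, adjusted p = 1.69e-05 from limma). CLU, the gene of clusterin, which binds terminal complexes in plasma, rose from 412.3 ± 208.7 to 1502 ± 72.1. MASP2, a lectin pathway protease, rose from 57.2 ± 11.8 to 105.1 ± 11.8. ITGAM, a subunit of complement receptor 3, rose from 21.1 ± 3.02 to 39.6 ± 10.3 (adjusted p = 0.0465 from limma). C5 and CLU met both criteria under all 15 alternatives, MASP2 under 13 of 15 and ITGAM under 5 of 14. MASP2 missed them without shRNF25 replicate 1 or 2 (adjusted p = 0.0782 and 0.0735), and ITGAM without any 1 of the 3 knockdown libraries (0.0585 to 0.202).

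The other 7 tested genes, C1RL, C2, C4A, CFD, C8G, C5AR1 and ITGB2, did not pass. CFD, the gene of factor D, which cleaves factor B, had 320.2 ± 89.9 in shControl and 212.2 ± 20.7 in shRNF25 (log2 fold change -0.55, adjusted p = 0.0963 from limma), and it was -0.81 with an adjusted p of 0.00109 without shControl replicate 1. C4A shares 93.3% of its 50-base words with other genes, nearly all with C4B, so the pair cannot be separated. Of 9 recognition molecules, 4 had values (MBL2, FCN3, COLEC10 and COLEC11), all under the filter with group means of at most 4.66. The other 5, C1QA, C1QB and C1QC among them, were not analysed here. Of the 7 terminal components, C5 and C8G passed the filter.

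Cytokines and factors known to induce complement genes were counted beside the members. Of 10, 9 were tested, and 4 were lower in shRNF25 (7.10% of all genes). IL1B, IL6 and TNF were lower, with log2 fold changes of -6.42, -3.83 and -4.30, and so was CEBPB at -0.81, from 3130 ± 388.2 to 1778 ± 30.7. CEBPD had 136.2 ± 57.9 and 116.9 ± 8.95 (adjusted p = 0.730 from limma). NFKB1, RELA and IRF1 did not pass the threshold, with log2 fold changes of -0.51 to 0.08. STAT3, which most human cells express, was listed with mean values of 0.37 and 1.27, too low to test. Whether that value is its level in these cells or comes from how its reads were counted was not tested, and it is not read as absence of the transcript.

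The genes most like each of 3 members over the 6 libraries were listed by Pearson's r of log2 values among 11339 tested genes with a mean of at least 100. For C3 these were DUSP10 (r = 0.999) and LCN2 (r = 0.999), for C1S IFI6 (r = 0.993) and CCDC102A (r = 0.991), and for CD55 PRR36 (r = 0.997) and AL161431.1 (r = 0.997). The 6 points are the same libraries in 2 groups for every gene, so r also carries the group difference, and it does not depend on the size of a change. CD55 had 2703 in shControl replicate 1 and 936.0 to 1264 in the other libraries, so its r values lean on that library. LCN2 went from 60820 to 3783 and DUSP10 from 295.4 to 163.8. IFI6 went from 1720 to 3248 and PRR36 from 931.7 to 585.6.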

How the data were processed

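The authors deposited a table of gene counts divided by 1 scaling factor per library, a signal on the normalized count scale. Per the labels, fastp, HISAT2 and HTSeq with GRCh38 were used. The annotation and the strand setting of the counting are not given in the sources used here. Deposited values were whole multiples of 1 step per library (100% within 0.01 reads), which gave back whole reads, and the scaling factors lay between 0.905 and 1.10. No further scaling was applied. Values were tested as log2(normalized count + 1) with limma 3.58.1 (trend, no covariates) in R 4.3.3. Because the table holds no raw counts, edgeR 4.0.16 (quasi-likelihood, TMM) and DESeq2 1.42.0 were alternatives on recovered reads. With both criteria edgeR called 1133 genes lower and 1525 higher, and limma 1175 and 1432. The limma, edgeR and DESeq2 fits were run on simulated data with large changes in well-counted genes only. That check does not bear on small changes or on genes with few reads. Gene positions, overlaps and merged exon lengths came from GENCODE 29.

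The members, gene lists, ratios and motifs were chosen with earlier results of these data known. Genes named outside the members are those of the wider list that passed, the inducers, and the 2 genes most like C3, C1S and CD55. Also named are some, not all, of the genes overlapping a member, and others marked or counted in groups of 5 or fewer. A planned ratio of C3 to CFI was not computed. Results for some genes of these lists are counted but not reported here by name.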

Additional observations from a re-analysis of the deposited data

How the results depend on the processing

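Calls near the threshold changed with the processing, and the cause was not tested unless stated. The count of higher members, 3, became 1 without a filter on low values and 1 with the replicate number as a block, CD59 being the remaining gene. It ranged from 1 to 3 when 1 library was left out, the low values coming without shControl replicate 3 or any 1 shRNF25 library, and it was 2 without shControl replicate 1 or with quantile normalization and 0 at a fold change of at least 2. The count of lower members, 2, became 1 with a filter of 50 or more in 3 or more libraries, because CFB was then not tested. It became 3 with DESeq2 and 3 with the replicate block, CD55 being the added gene in both. Among the other complement genes, the higher count, 5, ranged from 3 to 5 and the lower count, 0, from 0 to 1 with 1 library left out, and a fold change of at least 2 gave 3 higher genes. The log2 ratio of C1R to C1S differed by -0.10 as reported and by 0.0144 after quantile normalization. Same-numbered libraries did not deviate together across genes (r = -0.06, -0.09 and 0.05), and whether any were prepared together was not tested. With the replicate block CD55 reached an adjusted p of 0.0254, C1R 0.0587 and C1S 0.0633. Over all genes the higher calls, 1432, became 898 with the stricter filter and 748, 824 and 831 without shRNF25 replicates 1, 2 and 3. The C3, CFB, CD59 and RNF25 calls past the adjusted threshold held under each alternative that tested them. No sequencing batch is labelled, few reads limit CFB and SERPING1, and protein was not measured.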
